A study of Homo sapiens with 6 samples.

Results

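The clustered protocadherin genes are 53 neighbouring genes on chromosome 5 (hg19, chr5:140165721-140892544) in 3 tandem arrays, PCDHA (alpha, 15 genes), PCDHB (beta, 16 genes) and PCDHG (gamma, 22 genes). Their members here were the 40 kb bins of chromosome 5 from the first to the last of these genes, which came to 19 of the 45630 usable bins of the series, together with 1 Mb on each side. The bins were 6 for PCDHA (chr5:140160001-140400000), 6 for PCDHB (chr5:140400001-140640000), 1 that holds no protocadherin gene (chr5:140640001-140680000) and 6 for PCDHG (chr5:140680001-140920000). The bin without a protocadherin gene lies inside TAF7 (chr5:140639452-140700351), which runs on into the first PCDHG bin, where SLC25A2 also lies. Contacts were measured by Hi-C, an assay that cuts fixed chromatin (with BglII), joins ends that lie close together in the nucleus and reads the joined ends as pairs. LNCaP cells, an androgen-sensitive prostate cancer line, were transfected for 144 h with 20 nM of a pool of non-targeting siRNA (control siRNA, 2 libraries) or with 20 nM of a pool of siRNA against the architectural protein CTCF (CTCF siRNA, 4 libraries, numbered 1, 2, 1.1 and 2.1, for which the labels do not say whether the last 2 are separate cultures or further sequencing of the first 2). The libraries of a condition were pooled by the authors into 1 map, so no value has a replicate and no p-value between conditions can be given. Intervals in the text are 95% intervals that cover counting error alone.

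Protocadherins are cadherin-type adhesion molecules of the cell surface, best known from neurons, where each cell switches on a small choice of them and so carries its own recognition code. In PCDHA and PCDHG each variable first exon has its own promoter and is spliced to constant exons at the 3′ end of the array, whereas PCDHB genes consist of a single coding exon. Below, the bin of the constant exons means the bin with the 3′ end shared by the genes of an array. Constant exons that may lie before this bin were not located. For PCDHG the larger part of the bin, from chr5:140894583 on, lies in another gene, DIAPH1. Its values are therefore not those of the constant exons alone. CTCF is known to bind at many of the variable promoters and exons and at enhancers beyond the constant exons, and cohesin-mediated looping between such sites is a textbook example of promoter choice by chromatin folding. Prostate epithelium is not a tissue in which this choice is usually studied, and no expression was measured in the files used here.

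The sequences that this biology turns on are the promoter element of the arrays and the CTCF consensus matches around them, both read from the genome of the files' build. The short motif CGCT is the core of an element shared by many protocadherin promoters. Its letters lay on the gene's strand in 51 of the 53 promoters (14 of 15 PCDHA, 16 of 16 PCDHB and 21 of 22 PCDHG). A promoter was taken as 250 bases before to 50 bases after the annotated start. The same letters on the gene's strand were found in 60.1% of the 20090 promoters of all protein-coding genes, and on either strand in 77% of them, so that CGCT alone is common. A match therefore does not show that a promoter carries the element. Some matches had other surroundings or positions, such as those of PCDHB6 (-198 from the start), PCDHGA8 (-130) and PCDHA9 (2). Its neighbouring letters differed between many promoters of the arrays, as 3 stretches of each array, chosen to show this, make visible, with CGCT in capitals, 5′ to 3′ on the plus strand, on which all of these genes lie:
PCDHA1: ggccacatgatgtCGCTgtacaccacaaag
PCDHA4: agccacatgatgtCGCTctttaccacaaaa
PCDHA8: agccacatgatgtCGCTgtctaccaagaag
PCDHB7: aaacgcaaggtggCGCTgctggctaaaaag
PCDHB13: ggacgcgtggtggCGCTgcaggataagaag
PCDHB15: caacgcatggtggCGCTgcaggctaaggct
PCDHGA1: ggactgtgggcgcCGCTgttcactaatctg
PCDHGA10: ggactctgagcgcCGCTgttcacctactag
PCDHGC4: tgagcccgggagcCGCTgtctgccaatcgg

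The stretch of PCDHA1 lies at chr5:140165674-140165703, that of PCDHB15 at chr5:140624885-140624914 and that of PCDHGA1 at chr5:140709973-140710002. Extended to TGTCGCT on the gene's strand, the motif was found in 11 of 15 PCDHA promoters, 1 of 16 PCDHB promoters and 3 of 22 PCDHG promoters, against 1.04% of all promoters. TGGCGCT was found in 14 of 16 PCDHB promoters, in 3 of 22 PCDHG promoters and in 0 of 15 PCDHA promoters, against 2.52% of all promoters. GCCGCTG was found in 12 of 22 PCDHG promoters and in 0 promoters of PCDHA and PCDHB, against 6.27% of all promoters. PCDHA and PCDHG also shared letters, since GTCGCTG was found in 7 of 15 PCDHA and 6 of 22 PCDHG promoters, among them PCDHGA2, PCDHGA3 and PCDHGA4, and in 0 of 16 PCDHB promoters, against 1.87% of all promoters. These longer motifs, which contain CGCT, were chosen after the sequences had been seen, and the counts are descriptions.

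No promoter of the 53 members held the 12-letter CTCF core consensus on either strand, and neither did most promoters, since 0.533% of all promoters held it. The 19 member bins nevertheless held 9 matches, a mean of 0.474 per bin against 0.108 over 3319 bins of the chromosome. The flanks were also above that mean, with 0.24 per bin upstream and 0.36 downstream, and a match was found in 26.3% of member bins, 16% of upstream bins, 20% of downstream bins and 9.7% of the bins of the chromosome. The 4 matches in PCDHA bins lay inside variable coding exons and all pointed along the genes. Their stretches had nearly the same letters, as tandem copies do, so the 9 matches are not 9 separate sequences. The 2 matches in the bin that follows the PCDHA constant exons (chr5:140400001-140440000) lay between genes and pointed back towards PCDHA. They are printed 5′ to 3′ in the direction of the consensus, with the matched letters in capitals:
PCDHA4, coding exon, plus strand, chr5:140187220-140187249: tctcggtttCCACTAGAGGGCgcctcggat
PCDHA7, coding exon, plus strand, chr5:140214416-140214445: tctcggtttCCACTAGAGGGCgcgtccgat
PCDHA9, coding exon, plus strand, chr5:140228528-140228557: tctcggtttCCACTAGAGGGCgcgtccgat
PCDHA13, coding exon, plus strand, chr5:140262301-140262330: actcgatttCCACTAGATGGCgcatccgat
Between PCDHA and PCDHB, minus strand, chr5:140419939-140419968: gatctttaaCCAGCAGAGGGCgagtcgact
Between PCDHA and PCDHB, minus strand, chr5:140420948-140420977: cctcatctgCCACCAGGTGGCaggtggatc

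PCDHA7 and PCDHA9 had the same letters over the whole stretch, one instance of the near-identity of tandem copies, and reads that fit more than 1 copy cannot be placed. The part of this in the counts was not tested. The remaining 3 matches of the member bins lay in the last bin of PCDHG (chr5:140880001-140920000), 1 on the plus strand in the constant coding exon, 1 on the minus strand in the 3′ UTR and 1 on the minus strand in an intron of DIAPH1. The next bin downstream (chr5:140920001-140960000) held 2 more matches on the minus strand, again in introns of DIAPH1, which encodes a formin of the actin cytoskeleton:
DIAPH1 intron, minus strand, chr5:140904452-140904481: gatgctcagCCAGCAGGTGGCgctgggagc
DIAPH1 intron, minus strand, chr5:140943953-140943982: tgctttcagCCACCAGATGGCacatggatc
DIAPH1 intron, minus strand, chr5:140947256-140947285: ctcttctgtCCACTAGGTGGCactcaccca

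A match says that the letters are there, and binding of CTCF was not examined. The order of matches along the locus was therefore plus-strand matches in the PCDHA exons, minus-strand matches after PCDHA, and mostly minus-strand matches at the end of PCDHG and in DIAPH1, with matches on both strands further downstream, not all of which lie within the map of start sites and matches.

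**Figure D1:**
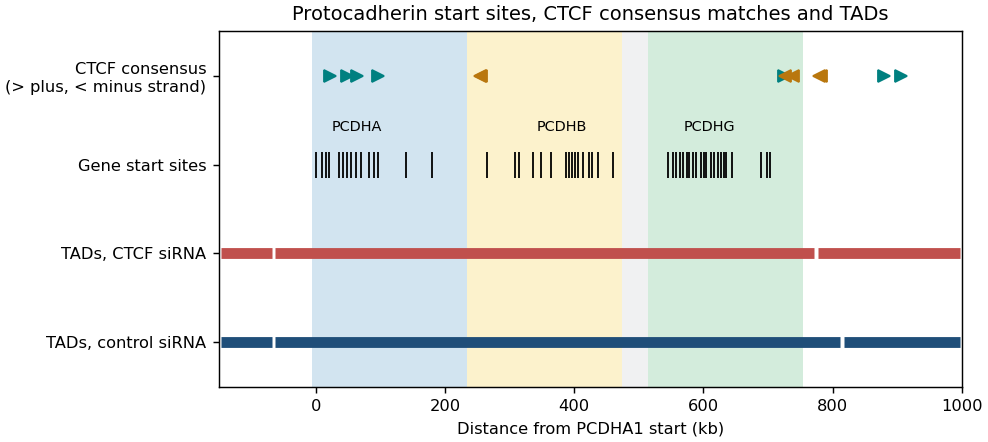
Map of the protocadherin locus by distance from the start of PCDHA1 (kb), with PCDHA bins shaded blue, PCDHB bins yellow, the bin without a protocadherin gene grey and PCDHG bins green. Triangles mark the CTCF consensus matches by strand, ticks the 53 annotated start sites and bars the TADs of each condition, whose left edge is shared and whose right edge lies 40 kb nearer to the genes after CTCF siRNA.

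Depth set what could be seen. On chromosome 5 the control map held 783580 contacts between different bins from position 48120001 on and the CTCF siRNA map 2838573, and the median usable bin had 477.5 and 1452 contacts within the chromosome. The member bins had 195 to 739 such contacts in control siRNA and 698 to 4162 in CTCF siRNA. The lowest in both maps was the bin with the start sites of PCDHA11, PCDHA12 and PCDHA13. The PCDHG bins took more of the contacts of the CTCF siRNA map (2.11 times the median of the chromosome, as a mean over bins) than of the control map (1.26 times), while PCDHB bins took 0.809 and 0.840 times. The share of contacts that stayed within the chromosome was 56.0% in control siRNA and 65.1% in CTCF siRNA over chromosome 5. It was 49.7% and 59.6% for PCDHA, 51.4% and 56.4% for PCDHB and 63.8% and 77.6% for PCDHG. The upstream flank had 56.9% and 74.2% and the downstream flank 64.8% and 82.3%. Coverage followed base composition more steeply in the CTCF siRNA map, where the most GC-rich of 10 groups (43163 bins in all) averaged 4.1 times the contacts of the most GC-poor one, against 1.24 times in control siRNA, and PCDHG bins were richer in GC (median 44.8%) than PCDHA bins (40.2%) and PCDHB bins (39.4%). Observed contacts were for this reason divided by an expected number made of the decay with distance along chromosome 5 and a factor for each bin, fitted by balancing in each map. A value of 1 is then the average of the chromosome at that distance and coverage. The change is the ratio of this value in CTCF siRNA to that in control siRNA, and it was called where it was at least 1.3-fold in either direction with an interval that left out 1.

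In control siRNA the locus behaved as 1 block with weak contacts to both sides. Contacts among all member bins were 1.31 times the expected number (1.26 to 1.37, 2261 contacts). Contacts of the member bins with the 1 Mb upstream were 0.416 times the expected number (0.377 to 0.458, 411 contacts), and those with the 1 Mb downstream 0.395 times (0.364 to 0.429, 579 contacts). Placed elsewhere on the autosomes, these layouts had 5th to 95th percentiles of 0.814 to 1.21 within, 0.573 to 1.46 upstream and 0.574 to 1.47 downstream. Each of these levels of the locus thus lay outside the range of its layout. The excess within the locus was found at separations of 40 kb (1.24), 80 to 200 kb (1.45) and 240 to 400 kb (1.29), and at 440 to 720 kb the value was 0.994 (0.821 to 1.19). In the contact maps of the region this appears as a square along the diagonal with pale bands on either side.

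**Figure D2:**
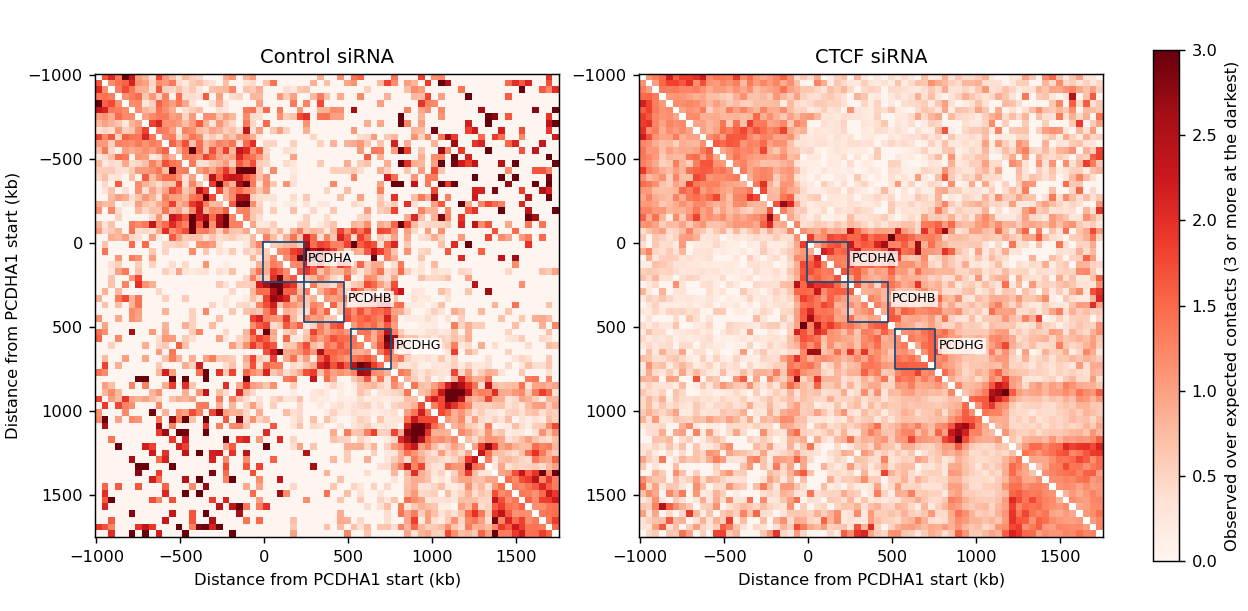
Observed over expected contacts between 40 kb bins of the protocadherin locus and 1 Mb on each side, in control siRNA (left) and CTCF siRNA (right), by distance from the start of PCDHA1 (kb). Outlined squares mark PCDHA, PCDHB and PCDHG. Contacts of the members with the downstream side are paler in control siRNA (0.395 times expected) than in CTCF siRNA (0.735 times), and the control map holds fewer contacts.

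The arrays were not equal within the locus. PCDHG contacted itself 1.53 times the expected number in control siRNA (1.42 to 1.65, 695 contacts), PCDHA 1.28 times (1.14 to 1.44, 280 contacts) and PCDHB 1.03 times (0.904 to 1.16, 250 contacts). Relative to the expected number, PCDHB had higher values with its neighbours than with itself: its value with PCDHA was 1.41 (1.26 to 1.58, 321 contacts) and with PCDHG 1.37 (1.24 to 1.52, 361 contacts). PCDHA and PCDHG, the outer arrays, stood at 0.863 (0.711 to 1.04, 113 contacts). The same layouts were also placed elsewhere on the autosomes. There the 5th to 95th percentiles of the control value were 0.723 to 1.35 for the PCDHG layout, below the 1.53 of PCDHG. Every other level within and between the arrays lay inside the range of its layout, so these levels were not unusual. Examples are the ranges for PCDHA (0.722 to 1.35) and for PCDHA with PCDHG (0.341 to 1.87). The levels of the arrays depended on the factor of each bin. Taking distance alone as the expected value, the control levels were 0.821 (0.728 to 0.923) within PCDHA, 0.733 within PCDHB and 0.945 (0.844 to 1.05) for PCDHA with PCDHB, and with a factor from contacts between chromosomes 0.853 (0.756 to 0.959), 0.734 and 0.968 (0.865 to 1.08), whereas those within PCDHG and of PCDHB with PCDHG stayed above 1.

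After CTCF siRNA none of the 6 values within and between the arrays passed the rule for a change. At 35625 placements of the same layouts elsewhere on the autosomes, the rule called 3.72% of the layouts of PCDHA, 3.7% of PCDHB and 3.68% of PCDHG in either direction, 17.9% of the layouts of PCDHA with PCDHB, 24.9% of PCDHB with PCDHG and 41.2% of PCDHA with PCDHG. Contacts among all member bins were at 1.26 (1.23 to 1.29, 8160 contacts), a change of 0.958-fold (0.915 to 1.0), and 0.0337% of such layouts were called. PCDHA went to 1.49 (1.41 to 1.59, 1045 contacts), a change of 1.16-fold (1.02 to 1.33). PCDHB was at 1.09 (1.0 to 1.19, 569 contacts), a change of 1.06-fold (0.915 to 1.24). PCDHG went to 1.34 (1.3 to 1.39, 3276 contacts), a change of 0.876-fold (0.807 to 0.952). The direction of these uncalled values within PCDHA and PCDHG depended on the factor of each bin, being 0.989-fold and 1.25-fold with distance alone and 0.999-fold and 1.12-fold with a factor from contacts between chromosomes.

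Between arrays, PCDHA with PCDHB changed 0.924-fold (0.811 to 1.06) to 1.31, PCDHB with PCDHG 0.843-fold (0.748 to 0.953) to 1.16, and PCDHA with PCDHG 1.17-fold (0.955 to 1.44) to 1.01. The bin without a protocadherin gene, between PCDHB and PCDHG and inside TAF7, was called lower with PCDHG. It went from 1.29 (1.07 to 1.55, 117 contacts) to 0.948 (0.856 to 1.05, 392 contacts), a change of 0.735-fold (0.596 to 0.911). Of such layouts elsewhere, 7.53% were called lower. The changes within and between the arrays depended on the factor of each bin. With distance alone as the expected value, the change within PCDHB was 0.603-fold, that of PCDHA with PCDHB 0.663-fold and that of PCDHB with PCDHG 0.760-fold, all called lower, and that of PCDHA with PCDHG was 1.35-fold (1.11 to 1.67), called higher. The decay of all autosomes called the same 3 lower, at 0.561, 0.612 and 0.700, and so did a factor taken from contacts between chromosomes, at 0.643, 0.671 and 0.736. With adjacent bins left out, the change within PCDHG was called lower at 0.762-fold.

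**Figure D3:**
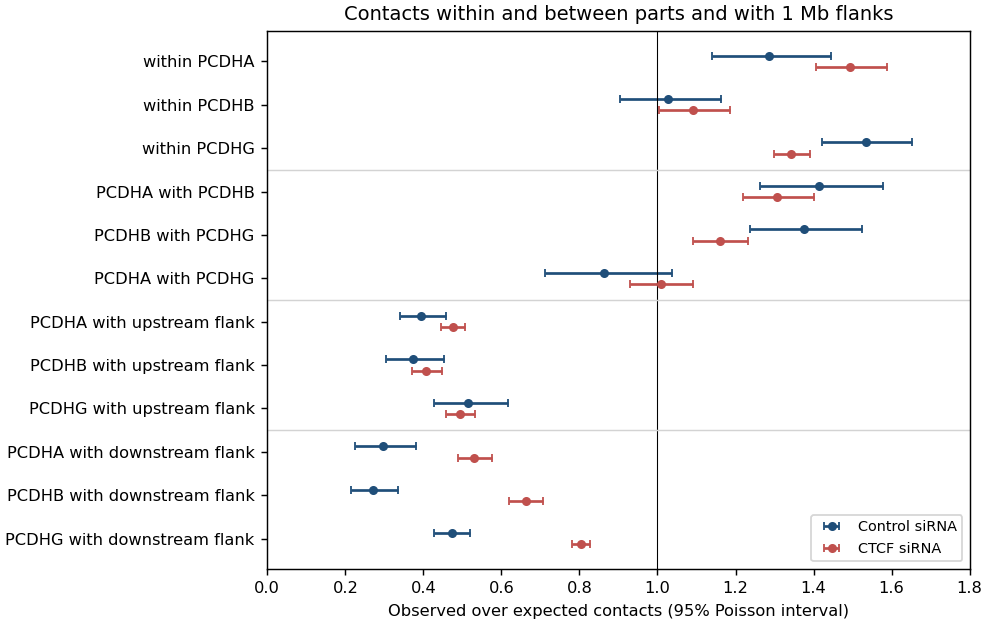
Observed over expected contacts within and between PCDHA, PCDHB and PCDHG and of each with the 1 Mb upstream and downstream flanks, in control siRNA (blue) and CTCF siRNA (red). Points are pooled values and bars 95% Poisson intervals, the line at 1 marks the average of the chromosome, and the 3 downstream values lie far apart between the maps, from 0.270 to 0.473 in control siRNA and from 0.531 to 0.804 in CTCF siRNA. The intervals within PCDHG and of PCDHB with PCDHG also do not overlap, the CTCF siRNA values being the lower ones.

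Contacts of the members with the 1 Mb downstream went from 0.395 to 0.735 times the expected number (0.717 to 0.753, 6254 contacts), 1.86-fold higher (1.71 to 2.03). All 3 arrays were called higher: PCDHA from 0.296 to 0.531 (1.79-fold, 1.37 to 2.39), PCDHB from 0.270 to 0.663 (2.45-fold, 1.96 to 3.10) and PCDHG, the nearest, from 0.473 to 0.804 (1.70-fold, 1.54 to 1.89). Elsewhere the same layouts were called higher in 11.3% of placements for all members, 32.2% for PCDHA, 26.6% for PCDHB and 11.1% for PCDHG. The calls for PCDHA and PCDHB, on 59 and 85 control contacts, therefore have a high background. The shares here and below are over all placements, whose median control value was 0.985 for all members with the downstream side. None was computed among placements with control values as low as those of the locus. The ratio of the change of PCDHB to that of PCDHG was 1.44 (1.13 to 1.84), an order that was lost with distance alone (2.57-fold and 2.81-fold) and with a factor from contacts between chromosomes (2.57-fold and 2.61-fold). The downstream flank is richer in GC (median 46.1%) than the locus, and its mean coverage was 1.31 times the median of the chromosome in control siRNA and 2.78 times in CTCF siRNA. Without the factor of each bin the rise was 2.72-fold for all members. The part of coverage, base composition and the share of contacts within the chromosome in the rise was not tested.

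With the balanced factor no array was called for the upstream side. Contacts of the members with the 1 Mb upstream went from 0.416 to 0.469 (1.13-fold, 1.02 to 1.26). PCDHA, the nearest, went from 0.395 to 0.476 (1.20-fold, 1.03 to 1.42), PCDHB from 0.373 to 0.408 (1.09-fold, 0.877 to 1.37) and PCDHG from 0.515 to 0.495 (0.960-fold, 0.789 to 1.18). In placements elsewhere, the layouts with the upstream side were called higher in 11.5% of cases for all members, 10.8% for PCDHA, 25.4% for PCDHB and 32.6% for PCDHG. The change downstream exceeded the change upstream by 1.65-fold (1.44 to 1.89) for all members, by 1.49-fold (1.09 to 2.03) for PCDHA, 2.25-fold (1.64 to 3.07) for PCDHB and 1.77-fold (1.42 to 2.21) for PCDHG. With distance alone as the expected value, the upstream change was called higher for all members (1.33-fold), PCDHA (1.34-fold, 1.14 to 1.58) and PCDHG (1.48-fold), and with a factor from contacts between chromosomes it was called higher for PCDHG (1.33-fold).

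All 19 member bins had a ratio above 1 with the downstream flank, with a median of 1.88, and 14 of them were called higher, against 15.8% of such bins elsewhere. These ratios split the contacts of the pooled rise above by bin. The bins share the flank and come from 1 map per condition, so they are not independent of each other. The bin of PCDHB3, PCDHB4 and PCDHB5 had the highest ratio, 5.23-fold (2.59 to 12.3), from 8 contacts in control siRNA and 167 in CTCF siRNA. The bins that missed the call were 4 of the 6 in PCDHA and 1 in PCDHB, that of PCDHB2. The first bin, with PCDHA1 to PCDHA4, had the lowest ratio, 1.12-fold (0.554 to 2.48), on 10 control contacts. All 6 PCDHG bins were called, from 1.37-fold in the bin of PCDHGA3 to PCDHGA6 to 2.35-fold in the bin of PCDHGA1 and PCDHGA2. With the upstream flank, 3 of the 19 bins were called higher, near the share of 15.8% elsewhere, and the ratios ran from 0.595 to 4.03 with a median of 1.25.

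**Figure D4:**
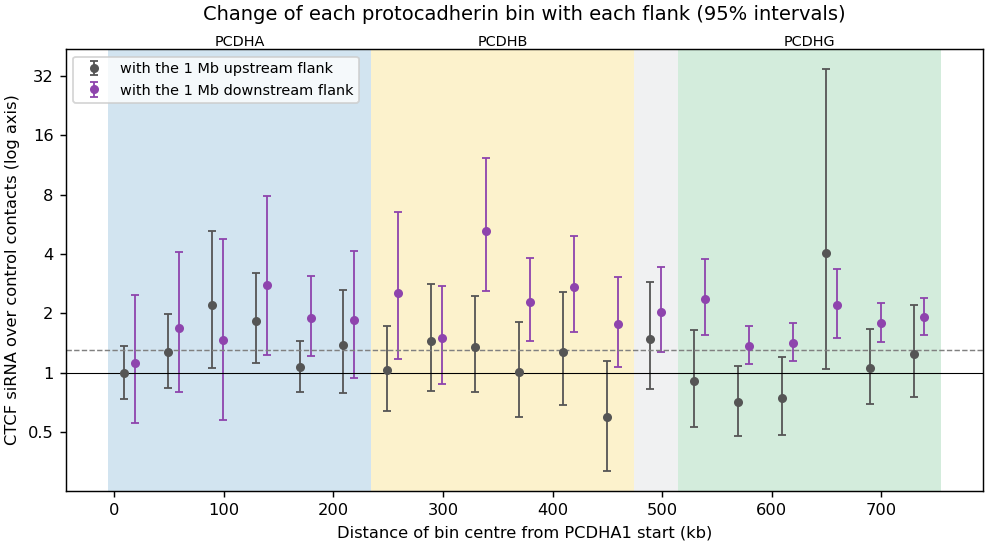
Ratio of CTCF siRNA to control contacts over expected, on a log axis, for each of the 19 protocadherin bins with the 1 Mb upstream flank (grey) and downstream flank (purple), by distance of the bin centre from the start of PCDHA1 (kb). Bars are 95% intervals and the dashed line marks 1.3-fold. Every downstream point lies above 1, with a median of 1.88, and the upstream points lie around a median of 1.25.

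Seen from the flank, the rise began past the first bins. Of the 25 downstream bins, 20 were called higher with the locus as a whole, against 13.8% of such bins elsewhere. They split the same contacts again, by flank bin, and are no separate evidence of the rise. The first downstream bin (chr5:140920001-140960000), which lies inside DIAPH1, was already in contact with the locus in control siRNA (1.27 times expected, 208 contacts) and had a ratio of 0.962 (0.825 to 1.12). The next (chr5:140960001-141000000) went from 0.827 to 1.1, a ratio of 1.33 (0.893 to 2.05). From chr5:141000001-141040000, at 0.401 in control siRNA and 0.929 in CTCF siRNA (2.31-fold, 1.74 to 3.14), most bins as far as 1 Mb away were higher. The highest ratio, 8.70-fold (2.35 to 72.7), rested on 2 control contacts. Of the 25 upstream bins 4 were called higher, against 13.9% elsewhere, and these included the bin next to PCDHA1 (chr5:140120001-140160000), which went from 1.08 to 1.62 (1.5-fold, 1.23 to 1.83).

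The insulation value of a bin compares contacts that span it, between the 400 kb on its left and on its right, with contacts inside those flanks, both over their expected numbers and as a log2 ratio, so that a low value marks a border. In control siRNA the locus lay between 2 deep minima. The upstream minimum was -2.56 ± 0.16 (Poisson SD) in the bin chr5:140080001-140120000, which holds an end of ZMAT2 and lies just past HARS2, the gene of a mitochondrial histidyl-tRNA synthetase. The downstream minimum was -2.13 ± 0.10 in the first bin after PCDHG, and it stayed near -2 over 3 bins (-2.13, -1.97 and -2.08). Values of -1 or below were found in 7.37% of 44750 bins in control siRNA and in 2.27% in CTCF siRNA.

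After CTCF siRNA the upstream minimum was -2.06 ± 0.07, a difference of 0.50 ± 0.18, and the downstream bins were -0.68 ± 0.03, -0.66 and -0.73, differences of 1.44 ± 0.10, 1.3 ± 0.09 and 1.35 ± 0.10. After CTCF siRNA the minimum on the PCDHG side was therefore far shallower than that on the PCDHA side. A rise of at least 0.5 was seen in 12.6% of bins elsewhere and a fall of that size in 3.39%. These shares are over all bins, and none was computed for bins as low in control siRNA as those beside the locus. On each side 8 of the 25 flank bins rose by at least 0.5, and upstream 4 also fell by that size. The bin before PCDHA1 went from -2.40 to -1.72, a difference of 0.69 ± 0.17, which was 0.27 with sides of 800 kb. Of the 19 member bins 2 rose by at least 0.5, no more than the share elsewhere, and 0 fell. With adjacent bins left out of insulation 3 rose, a setting for which the share elsewhere was not computed, with sides of 800 kb 1 rose, and with sides of 200 kb 1 fell. The 2 that rose were the outermost, the bin of PCDHA1 to PCDHA4 (-1.72 to -1.1, a difference of 0.63 ± 0.14) and the bin of the PCDHG constant exons (-1.38 to -0.55, a difference of 0.83 ± 0.09). With sides of 800 kb the first of these differences was 0.28, and with sides of 200 kb the second was 0.43.

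No bin between the arrays had a value of -1 or below in either map. Between the PCDHA and PCDHB bins the values were 0.14 and -0.06 in control siRNA and 0.01 and -0.05 in CTCF siRNA, so that contacts across this position were close to those on its sides. The bin without a protocadherin gene between PCDHB and PCDHG was at -0.29 ± 0.07 in control siRNA and at -0.31 in CTCF siRNA. The second bin of PCDHA, with PCDHA5 to PCDHA10, was still low (-1.21 to -0.81), and next to the last bin of PCDHG, that of PCDHGC3, PCDHGC4 and PCDHGC5 went from -0.61 to -0.36. The PCDHB bins had small differences of 0.01 to 0.21. The largest fall among the member bins was -0.27 ± 0.10, in the bin of PCDHAC2 (0.08 to -0.19).

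**Figure D5:**
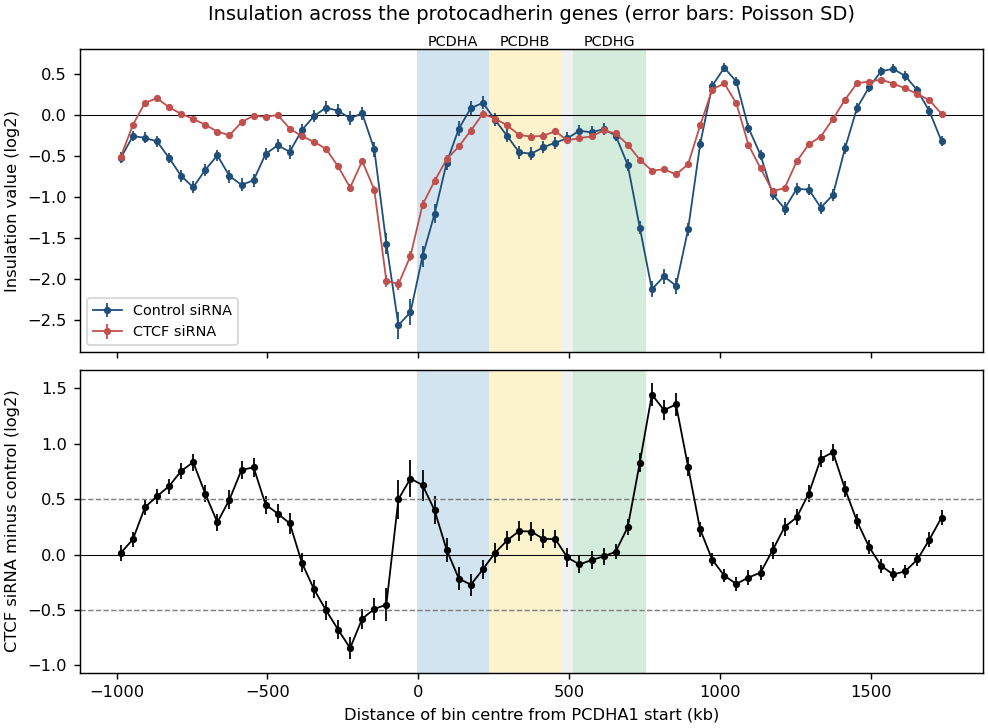
Insulation values (log2) of 40 kb bins in control siRNA (blue) and CTCF siRNA (red) in the upper panel, and their difference in the lower panel, by distance of the bin centre from the start of PCDHA1 (kb). Bars are Poisson SDs, shading marks PCDHA, PCDHB and PCDHG, and dashed lines mark differences of 0.5. The bin of the control minimum after PCDHG goes from -2.13 to -0.68 and that before PCDHA from -2.56 to -2.06.

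The TADs called by the authors kept the locus whole in both lists. A TAD is a stretch of chromosome that contacts itself more than it does its neighbours, and the edges in these lists lie midway between those of the contact bins. In control siRNA all 53 genes lay in 1 TAD of 880 kb (chr5:140100001-140980000) and in CTCF siRNA in 1 TAD of 840 kb (chr5:140100001-140940000). The left edge was at the same position, and the right edge moved by 40 kb, 1 bin, towards PCDHG. Both right edges lie in DIAPH1, within 60 kb of which the control edge also has HDAC3, a histone deacetylase, RELL2, FCHSD1 and ARAP3. The downstream neighbour, which ends inside PCDH12, a protocadherin outside the clusters, ran from 140980001 to 141340000 in control siRNA and from 140940001 to 141340000 in CTCF siRNA. A TAD edge was thus still called next to PCDHG in the map in which insulation there was -0.68.

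Contacts of the promoters with the 3′ ends of their arrays were examined because variable promoters are known to be joined with the constant exons and with enhancers beyond them. The bin after the PCDHA constant exons holds the 2 minus-strand CTCF matches printed above and the start of PCDHB1. In control siRNA it contacted the 5 bins of PCDHA promoters 2.37 times the expected number (1.89 to 2.94, 82 contacts). The 95th percentile of the control value of this layout elsewhere was 1.64. After CTCF siRNA the value with the PCDHA promoters was 1.71 (1.45 to 2.01, 154 contacts), a change of 0.722-fold (0.549 to 0.956), which was called lower. The same layout was called lower in 8.79% of placements elsewhere. The bins of PCDHA5 to PCDHA10 and of PCDHA11 to PCDHA13, which hold 3 of the 4 plus-strand matches in PCDHA exons, had values of 3.56 and 3.99 with it in control siRNA, from 13 and 11 contacts, and of 1.93 and 1.99 in CTCF siRNA, from 16 and 14. The bin of PCDHA1 to PCDHA4 went from 2.58 to 2.25, that of PCDHAC1 from 2.16 to 1.94 and that of PCDHAC2 from 1.93 to 1.51. All 5 were lower after CTCF siRNA, none of them by itself beyond its interval. These values share the same anchor bin and its factor and make up the pooled value above, so they are not independent of each other. With distance alone as the expected value the change of the 5 bins together was 0.502-fold, and with a factor from contacts between chromosomes 0.476-fold.

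The bin of the PCDHA constant exons itself, 1 bin nearer, contacted the PCDHA promoters 1.62 times the expected number in control siRNA (1.32 to 1.97, 99 contacts) and 1.59 times in CTCF siRNA, a ratio of 0.980 (0.784 to 1.23). This layout was called in either direction in 13.6% of placements elsewhere, where the 95th percentile of the control value was 1.51. Neither of these anchors had a called change with PCDHB or PCDHG promoters, where the shares elsewhere were 14.2% and 17.7% for the constant exons and 13.9% and 18.1% for the bin after them. Values with PCDHG promoters rested on 10 and 21 control contacts.

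At the other end, the bin of the PCDHG constant exons holds 3 CTCF matches and lies for its larger part in DIAPH1. It contacted the PCDHG promoters 2.04 times the expected number in control siRNA (1.8 to 2.29, 282 contacts) and 1.57 times in CTCF siRNA (1.48 to 1.66, 1190 contacts). The ratio of 0.769 (0.675 to 0.879) was just short of the 1.3-fold needed for a call (made for 13.6% of such layouts elsewhere, in either direction), and it was 1.12 with distance alone as the expected value and 1.0 with a factor from contacts between chromosomes. Its contacts with the PCDHA promoters rested on 11 control contacts and were not called, against 13.4% of placements. Its contacts with the PCDHB promoters went from 1.82 (1.39 to 2.33, 62 contacts) to 1.18 (0.995 to 1.40, 139 contacts), a change of 0.651-fold (0.479 to 0.893) that was called lower, as were 9.18% of placements of this layout elsewhere. This change was 0.572-fold with distance alone and 0.561-fold with the factor from contacts between chromosomes, both called lower. In placements elsewhere the 95th percentile of the control value was 1.51 for the layout with PCDHG promoters, below the 2.04 here. For the layout with PCDHB promoters it was 1.93, above the 1.82 here.

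Of 153 single pairs of bins at least 80 kb apart, 5 were called lower and 2 higher, against 2.97% and 1.53% of such pairs elsewhere, so that the number of calls was near the background. The bin of PCDHA11 to PCDHA13 was lower with the bin of the PCDHA constant exons (0.407-fold) and with that of PCDHB2 (0.353-fold), and the bin of PCDHB2 was lower with that of PCDHGA1 and PCDHGA2 (0.337-fold), each from 9 to 11 control contacts. The bin of PCDHAC2 was higher with that of PCDHGA3 to PCDHGA6 and the bin of PCDHB2 with that of PCDHGC3 to PCDHGC5, from 3 and 1 control contacts. The other 2 called lower were PCDHG pairs. The pairs with the highest lower limit in control siRNA were the bin of PCDHGA3 to PCDHGA6 with the bin of the PCDHG constant exons (3.25, 2.5 to 4.15, 64 contacts) and the next bin, of PCDHGA7 to PCDHGB7, with the same partner (2.74, 2.1 to 3.52, 62 contacts). These went to 1.60 (174 contacts) and 1.56 (190 contacts), changes of 0.493-fold (0.369 to 0.668) and 0.569-fold (0.425 to 0.770). A ranking by the values of 1 map favours lower values in the other map, and the intervals do not cover this choice. With distance alone as the expected value these 2 pairs changed 0.729-fold, called lower, and 0.827-fold, not called, and with a factor from contacts between chromosomes 0.670-fold, called, and 0.749-fold, not called. The next 3 in rank joined PCDHA promoter bins with the bins of PCDHB1 and PCDHB2, at 3.99, 3.56 and 3.4, each from 10 to 13 contacts. In CTCF siRNA the pair with the highest lower limit was the bin of PCDHA5 to PCDHA10 with the bin that holds no protocadherin gene (2.48, 1.52 to 3.83, 20 contacts), a pair with 1 contact in control siRNA. Of the 5 pairs ranked highest in each map, 2 were shared, and these were the 2 PCDHG pairs.

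The C-type members, PCDHAC1, PCDHAC2, PCDHGC3, PCDHGC4 and PCDHGC5, lie at the 3′ ends of the variable exons and are known to be expressed largely outside the random choice of the others. Their contacts were taken over bins at least 80 kb away, so that adjacent bins are left out, unlike in the values of the constant-exon bins. The bin of PCDHAC1 contacted PCDHA bins at 1.16 in control siRNA and 1.55 in CTCF siRNA (ratio 1.34, 0.902 to 2.04) and PCDHB bins at 1.69 and 1.60 (0.947, 0.703 to 1.29). The bin of PCDHAC2, which has 23 BglII sites where the other PCDHA bins have 4 to 12, contacted PCDHA bins at 1.48 in both maps (0.999, 0.730 to 1.39). The bin shared by PCDHGC3, PCDHGC4 and PCDHGC5 contacted PCDHG bins at 1.57 and 1.38 (0.880, 0.722 to 1.08).

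For comparison, 2 other tandem gene arrays were measured in the same way, the keratin genes from KRT80 to KRT18 on chromosome 12 (27 genes, type II apart from the type I gene KRT18, 20 bins) and the UGT2A and UGT2B genes on chromosome 4 (10 genes, 28 bins). Contacts within them were 1.26 and 1.12 times expected in control siRNA and 1.18 and 0.981 times in CTCF siRNA, changes of 0.932-fold (0.903 to 0.962) and 0.879-fold (0.830 to 0.931), beside 0.958-fold for the protocadherin bins. Both also had higher contacts with the side to the right of them after CTCF siRNA, 1.35-fold (1.24 to 1.46) and 1.73-fold (1.59 to 1.89), beside 1.86-fold for the protocadherins. At the left side the keratin array kept 0.889 and 0.899 times the expected number, and the UGT2 array changed 0.823-fold. With distance alone as the expected value, contacts of the keratin array changed 1.47-fold within it, 1.52-fold (1.44 to 1.6) with the left side and 2.05-fold with the right side, and those of the UGT2 array 0.838-fold, 0.766-fold and 1.34-fold.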

How the data were processed

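Hi-C libraries of LNCaP cells fall into groups by siRNA, as labelled. Per the methods, the authors mapped reads to hg19, pooled the libraries of a condition and counted pairs between 40 kb bins; the submitters' processing notes name Bowtie 1.1.0, SAMtools 1.2, Picard 1.121 and FastQC 0.11.2. The deposited contact values are pair counts, multiplied by a factor per bin before position 48120001 of every chromosome; only later positions, where all values were whole, were used. TAD coordinates are the authors'. Expected contacts combined distance decay with a factor per bin (iterative balancing; Python 3.11.15, numpy 2.4.6, scipy 1.17.1) over bins with 10% or more of the median of their chromosome in each map. Intervals (95%) are exact Poisson for levels and exact conditional binomial (Clopper-Pearson) for ratios, and leave out the error of the factors. The procedure was tested on simulated maps, where balancing took up part of a strong change. Background shares place the same layout elsewhere on the autosomes, chromosome 21 left out. Genes came from the GENCODE annotation of hg19. Named genes were the first and last of each array, C-type members, those in bins with extreme insulation differences, the 5 top pairs of each map and neighbours of TAD edges; others, named by bin or motif, were chosen after their values were seen. Members and lists were chosen with earlier results of these data known. Alternatives are in the closing section.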

Additional observations from a re-analysis of the deposited data

How the results depend on the processing

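No paired analysis was possible because each condition was deposited as 1 pooled map, which also leaves no replicate to leave out. Of 41 results under their alternatives (202 values), 116 stayed within a tolerance of the value reported, 86 moved beyond it, and 0 called values changed direction. Uncalled values could change direction. The change within PCDHG was 0.876-fold (0.807 to 0.952) with the balanced factor and 1.25-fold (1.15 to 1.36) with distance alone. The tolerance was the 95% counting interval for contacts, 1 counting SD for insulation and a factor of 1.5 for counts of bins or edges. The downstream rise of each array and of all members was called under every alternative tried for it (1.54-fold to 2.81-fold), and so were the fall of PCDHA promoters with the bin after their constant exons and that of PCDHB promoters with the PCDHG constant exons. Levels and changes within and between arrays depended on the bin factor, and the falls called with distance alone or with the factor from contacts between chromosomes were not called with the balanced factor over all bins. Whether the base composition of the bins sets this was not tested. The control map limits values at long distance, and how far CTCF was depleted was not measured in these files.

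With distance alone as the expected value, the control and CTCF siRNA levels were 0.821 and 0.812 within PCDHA, 0.733 and 0.442 within PCDHB, 2.04 and 2.55 within PCDHG, and 0.945 and 0.626 for PCDHA with PCDHB; the CTCF siRNA levels were 1.0 for PCDHB with PCDHG and 1.11 for PCDHA with PCDHG. The changes were 0.989-fold within PCDHA, 0.603 within PCDHB, 1.25 within PCDHG and 0.663 for PCDHA with PCDHB. Upstream changes were 1.33 for all members and 1.48 for PCDHG, and downstream changes 2.72 for all members, 2.39 for PCDHA and 2.81 for PCDHG. PCDHA promoters with the bin after their constant exons changed 0.502-fold, PCDHG promoters with their constant exons 1.12-fold, the 2 single PCDHG pairs 0.729-fold and 0.827-fold, and the keratin array 1.47-fold. The insulation difference of the last member bin was 0.70.

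With the decay of all autosomes and distance alone, the levels were 1.05 and 0.966 within PCDHA, 0.526 in CTCF siRNA within PCDHB, 2.60 and 3.03 within PCDHG, 1.22 and 0.749 for PCDHA with PCDHB, 1.72 in control siRNA for PCDHB with PCDHG, and 1.08 and 1.36 for PCDHA with PCDHG. The changes were 0.921 within PCDHA, 0.561 within PCDHB, 1.16 within PCDHG, 0.612 for PCDHA with PCDHB and 0.700 for PCDHB with PCDHG.

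With a factor from contacts between chromosomes, chosen after seeing the data, the levels were 0.853 and 0.853 within PCDHA, 0.734 and 0.472 within PCDHB, 2.62 and 2.95 within PCDHG, 0.968 and 0.649 for PCDHA with PCDHB, 1.57 in control siRNA for PCDHB with PCDHG, and 1.22 in CTCF siRNA for PCDHA with PCDHG. The changes were 0.999 within PCDHA, 0.643 within PCDHB, 1.12 within PCDHG, 0.671 for PCDHA with PCDHB and 0.736 for PCDHB with PCDHG. Upstream changes were 1.27 for all members and 1.33 for PCDHG, and downstream changes 2.60 and 2.61. PCDHA promoters with the bin after their constant exons changed 0.476-fold, PCDHG promoters with their constant exons 1.0-fold and the first PCDHG pair 0.670-fold. The last member bin differed by 0.69 in insulation.

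With a factor from the total count of a bin, the levels were 1.45 and 1.70 within PCDHA, 1.40 and 1.08 within PCDHG (change 0.770), and in CTCF siRNA 1.43 for PCDHA with PCDHB and 1.05 for PCDHB with PCDHG. With adjacent bins left out, the level within PCDHB in CTCF siRNA was 0.938, and those within PCDHG were 1.85 and 1.41 (change 0.762, called lower). With the bin after PCDHA counted as PCDHA, the control level of PCDHA with PCDHB was 1.22. With flanks of 480 kb the downstream change of all members was 1.70.

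With insulation sides of 800 kb, 1 member bin rose by at least 0.5, and the differences were 0.28 for the first member bin, 0.94 for the last and 0.27 for the bin before the first. With sides of 200 kb, 1 member bin fell by at least 0.5, and the differences were 0.43 for the last member bin and 1.18 for the next. With adjacent bins left out of insulation, 3 member bins rose by that size, and the differences were 0.80 for the first member bin and 0.89 for the one before it. With 0 kb allowed between edges, 1 edge of the TAD was shared in place of 2.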
